A study of Mus musculus with 23 samples.

Results

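The bitter taste receptors of the mouse are the Tas2r genes, and every gene whose symbol begins with Tas2r and a digit was taken. There were 40 of them among the 53402 gene identifiers of the count table, 35 protein-coding and 5 annotated as pseudogenes, and all 40 had at least 1 count in some library. Mice were of the C57BL/6 strain, and the cells were mTECs, epithelial cells of the thymic medulla, whose total RNA was read after a sort for DAPI- CD45- EpCAM+ Ly51- cells that were either high (mTEChi) or low (mTEClo) for MHC class II. Aire knockout (KO) mice were set against wild-type (WT) mice; Aire is a nuclear regulator that mTEChi cells use to transcribe genes of peripheral tissues, and the KO allele is not given in the sources used here. The 23 libraries formed 4 groups. KO mTEChi had 4 libraries, all from males, 2 of 5 weeks and 2 of 6 weeks. WT mTEChi had 7 libraries, 5 from males and 2 from females, 2 of 4 weeks and 5 of 5 weeks. KO mTEClo again had 4 male libraries, 2 of 5 weeks and 2 of 6 weeks. WT mTEClo had 8 libraries, 5 from males and 3 from females, 5 of 4 weeks and 3 of 5 weeks. No WT library was of 6 weeks and no KO library of 4 weeks, so genotype and age were partly confounded.

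Tas2r proteins are G protein-coupled receptors that bind bitter compounds on type II taste cells of the tongue. In those cells the signal runs through gustducin (the alpha subunit Gnat3 with its partner Gng13), phospholipase Plcb2, the calcium release channel Itpr3 and the cation channel Trpm5. The same receptors and pathway occur in tuft cells, chemosensory epithelial cells that depend on the transcription factor Pou2f3, and the thymic medulla is known to hold such tuft cells, many of them low for MHC class II. In bulk libraries like these, a larger share of such cells and more receptor RNA per cell cannot be told apart.

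Library totals ranged from 1602125 to 3938588 counts, and 6 libraries held fewer than 2000000. The labels held for the targeted gene: Aire averaged 29.3 ± 11.6 CPM (counts per gene scaled to a common library total) in KO mTEChi and 818 ± 56.0 CPM in WT mTEChi (SD, n = 4 and 7). In mTEClo it averaged 2.74 ± 3.53 CPM in KO and 69.2 ± 33.4 CPM in WT (SD, n = 4 and 8). All 11 mTEC markers had counts in each group, and the 8 tuft cell markers summed to between 158 and 405 CPM in mTEChi libraries and between 1741 and 2586 CPM in mTEClo libraries. On principal component 3 of the 23 libraries, the 6-week KO mTEClo libraries stood apart, at -32.3 and -34.0, while the 5-week ones lay at -11.5 and -9.03 and WT mTEClo between 3.66 and 13.1. The comparison of KO with WT in mTEClo is therefore given with and without these 2 libraries.

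In the mouse genome (GRCm38) 38 of the 40 genes lie on chromosome 6, most of them in 3 clusters. Tas2r137, Tas2r108 and Tas2r138 lie at chr6:40491233-40613310. Tas2r139, Tas2r144, Tas2r143, Tas2r135 and Tas2r126 lie at chr6:42140936-42435464. The largest cluster, at chr6:131629823-133096015, holds 29 members including the 5 pseudogenes. Tas2r118 (chr6:23969161-23970060), Tas2r134 (chr2:51627511-51628408) and Tas2r119 (chr15:32177289-32178294) stand alone. Each gene is annotated as 1 exon block of 882 to 1158 bases, and no other annotated gene overlaps any of them. Among the 780 pairs of members the median nucleotide identity of the transcripts was 52.0%, with a range of 43.4 to 86.1%. Only 2 pairs reached 80%, Tas2r123 with Tas2r110 (86.1%) and Tas2r109 with the pseudogene Tas2r111-ps2 (83.5%), and reads of these genes could be exchanged where they are identical. Tas2r117 shared an exact run of 213 bases with the neighbouring gene model Gm18690, so its count is uncertain. For no other member did the search find 50 or more bases shared exactly with another annotated transcript. It kept only matches without a mismatch, so an exact run inside a longer imperfect match could be missed.

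For 31 of the 40 genes RefSeq gives a start, and the 300 bases around it (250 before, 50 after, build GRCm38.p6) were searched on both strands. In 29 of the 31 the annotated start is the start codon itself, so the first 250 bases of these windows lie before the coding sequence and the last 50 within it, and they need not hold the start of transcription. The octamer ATGCAAAT, the classical motif of POU-domain factors such as Pou2f3, was present in 7 of the 31 windows (22.6%), against 570 of 32851 windows of all genes (1.74%). Member windows were rich in A and T, with a median of 63%, against 47.3% over all genes. Among the 2028 windows at least as rich in A and T as that median, 3.45% held the octamer. The genes with it were Tas2r107, Tas2r108, Tas2r118, Tas2r126, Tas2r135, Tas2r137 and Tas2r144, and in each it lay between 236 and 117 bases before the start, in 6 of the 7 on the opposite strand. TATAAA was present in the 250 bases before the start in 9 of the 31 windows (29.0%), against 12.4% of all, and Tas2r131 had a match after its start. For TATAAA, which holds only A and T, no background of windows equally rich in A and T was taken. Of the 32851 windows of all genes only 1915 had ATG right after the start, against 29 of the 31 member windows. The background of all genes is thus mostly another kind of region, and for neither motif was a background of start-codon windows taken. A match of letters describes these windows and is not evidence of binding.

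Windows of 6 members are shown. Tas2r137, Tas2r108, Tas2r135 and Tas2r126 hold the octamer, in capitals as its reverse complement, and were, with libraries of both genotypes pooled, the passing members with the largest share of their counts in mTEChi. Tas2r123 and Tas2r113 are the 2 members that passed the test of KO against WT in mTEClo. Neither holds the octamer, and Tas2r123 has a TATAAA, also in capitals. All 6 are on the plus strand, at chr6:40490988-40491287, chr6:40493342-40493641, chr6:42405279-42405578, chr6:42434285-42434584, chr6:132846892-132847191 and chr6:132892761-132893060 in the order printed.
Tas2r137: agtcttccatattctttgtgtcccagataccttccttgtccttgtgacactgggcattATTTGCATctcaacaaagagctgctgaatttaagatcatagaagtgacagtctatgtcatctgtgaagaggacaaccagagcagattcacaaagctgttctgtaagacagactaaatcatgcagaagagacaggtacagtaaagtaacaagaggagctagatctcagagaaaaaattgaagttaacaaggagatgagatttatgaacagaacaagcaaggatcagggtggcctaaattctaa
Tas2r108: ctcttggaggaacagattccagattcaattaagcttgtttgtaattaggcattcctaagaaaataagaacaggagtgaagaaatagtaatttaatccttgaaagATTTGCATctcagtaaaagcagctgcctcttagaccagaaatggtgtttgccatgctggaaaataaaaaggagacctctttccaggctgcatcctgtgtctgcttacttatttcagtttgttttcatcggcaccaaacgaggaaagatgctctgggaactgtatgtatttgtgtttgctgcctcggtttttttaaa
Tas2r135: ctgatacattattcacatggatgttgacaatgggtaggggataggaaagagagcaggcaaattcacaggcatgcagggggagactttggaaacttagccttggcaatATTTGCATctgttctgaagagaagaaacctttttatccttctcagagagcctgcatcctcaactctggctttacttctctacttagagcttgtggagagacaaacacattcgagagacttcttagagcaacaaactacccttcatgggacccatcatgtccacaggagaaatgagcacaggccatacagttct
Tas2r126: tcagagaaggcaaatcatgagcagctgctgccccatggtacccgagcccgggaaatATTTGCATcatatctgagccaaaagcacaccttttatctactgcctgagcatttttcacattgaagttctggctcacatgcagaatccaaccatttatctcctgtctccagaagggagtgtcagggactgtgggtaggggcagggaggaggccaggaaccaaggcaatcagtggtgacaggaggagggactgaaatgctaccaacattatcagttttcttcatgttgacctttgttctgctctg
Tas2r123: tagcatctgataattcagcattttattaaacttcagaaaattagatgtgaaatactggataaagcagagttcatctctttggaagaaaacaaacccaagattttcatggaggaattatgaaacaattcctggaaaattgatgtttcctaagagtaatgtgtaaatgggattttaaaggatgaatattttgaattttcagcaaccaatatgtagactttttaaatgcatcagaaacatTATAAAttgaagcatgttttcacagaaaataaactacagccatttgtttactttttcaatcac
Tas2r113: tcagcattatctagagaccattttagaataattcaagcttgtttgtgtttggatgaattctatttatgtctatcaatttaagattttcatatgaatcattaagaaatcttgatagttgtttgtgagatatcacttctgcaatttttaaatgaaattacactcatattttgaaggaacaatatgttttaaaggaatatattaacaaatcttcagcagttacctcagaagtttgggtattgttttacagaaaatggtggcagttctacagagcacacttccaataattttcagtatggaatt

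The family was counted almost entirely in mTEClo. Its 40 genes together took 335 counts in the 11 mTEChi libraries and 13157 counts in the 12 mTEClo libraries. The summed level was 7.46, 6.14, 12.3 and 7.10 CPM in the KO mTEChi libraries, against 249 to 546 CPM in the KO mTEClo libraries. In WT mTEChi the lowest, median and highest libraries had 9.36, 13.9 and 19.2 CPM, against 257, 308 and 468 CPM in WT mTEClo. Every mTEChi library lay below every mTEClo library, in both genotypes. The ratio of the mTEClo mean to the mTEChi mean was 47.8 in KO and 23.4 in WT.

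**Figure D1:**
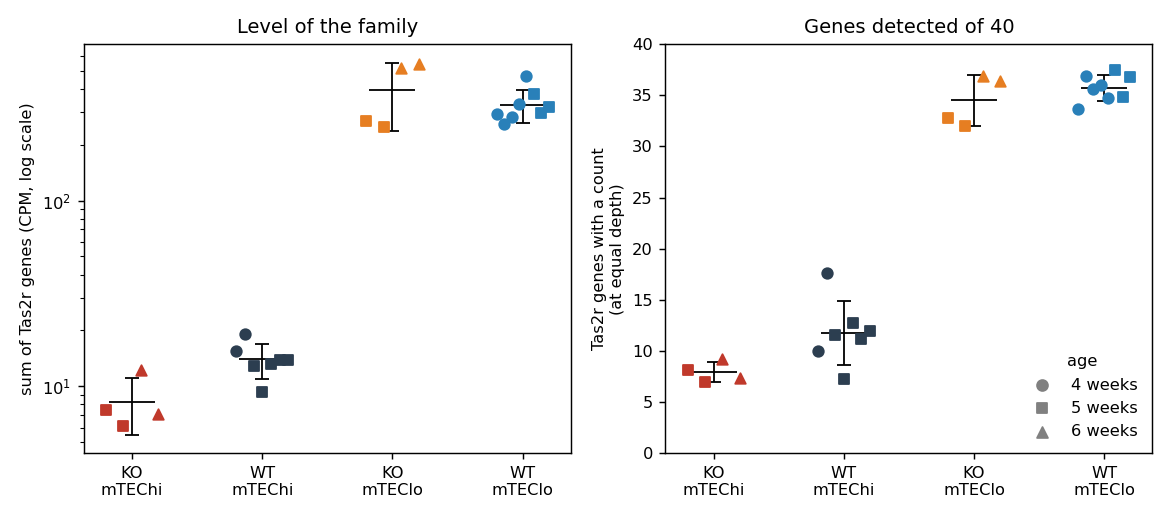
Left, the summed level of the 40 Tas2r genes per library in CPM on a log axis; right, the number of the 40 with a count after thinning to 1602125 counts. Points are libraries with their shape showing age, bars the mean and SD; mTEChi libraries lie between 6.14 and 19.2 CPM and mTEClo libraries between 249 and 546 CPM, with the 6-week KO mTEClo libraries at the top.

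Most single receptors followed the family. At equal depth 7.96 ± 1.00 of the 40 genes had a count in KO mTEChi and 11.8 ± 3.13 in WT mTEChi, against 34.5 ± 2.50 in KO mTEClo and 35.7 ± 1.29 in WT mTEClo (SD, n = 4, 7, 4 and 8). In every mTEClo library 30 members had a count; in every mTEChi library only Tas2r108 and Tas2r137 had one. In a fit of all genes without a filter on low counts, edgeR's quasi-likelihood test called 35 of the 40 members lower in mTEChi than in mTEClo of KO mice, with a background of 13.8% of 42889 genes called lower. In WT mice it called 37 of the 40, with a background of 16.6%. Every mTEChi library lay below every mTEClo library for 31 members in KO and 30 in WT, against 11.2% of all genes with a count in KO and 9.07% in WT. The median log2 change of the 40 members was -5.36 in KO and -4.52 in WT. Over the 19310 genes that passed the filter on low counts, the median change was below 0.01 in size in both genotypes.

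After the filter, which asks for enough counts in the size of the smallest group, 29 members remained, all through their mTEClo counts. None of the 29 was called higher and all 29 were called lower in mTEChi, in KO (29.2% of genes called higher, 28% lower) and in WT (36.7% higher, 33.4% lower). Because the filter favours this outcome, that count is not read as a result. The filter lay between Tas2r131, with 112 counts in all, the lowest that passed, and Tas2r119, with 88, the highest that did not.

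**Figure D2:**
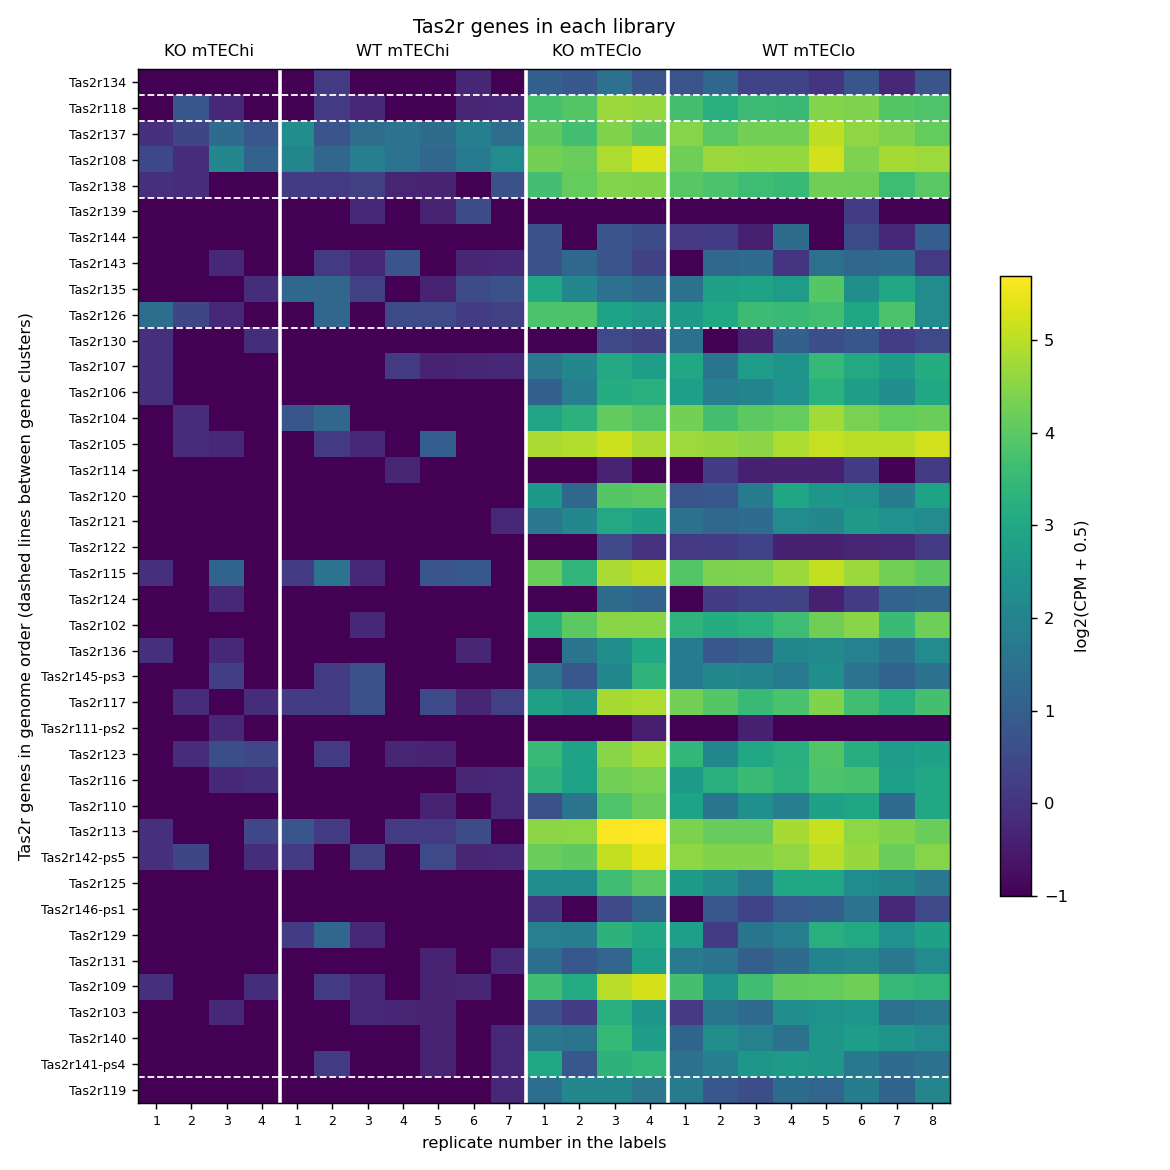
Level of each of the 40 Tas2r genes in genome order (rows) in each of the 23 libraries (columns), as log2(CPM + 0.5); dashed lines part the gene clusters and white lines the groups. The mTEChi columns are dark, with Tas2r137 and Tas2r108 the only rows that have a count in each of them, and in KO mTEClo replicates 3 and 4 (6 weeks) are brighter than replicates 1 and 2 (5 weeks) over most of the large cluster.

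The members differed in how much of their count came from mTEChi. Tas2r137 had 12 counts in KO mTEChi and 46 in WT mTEChi, against 186 in KO mTEClo and 531 in WT mTEClo, so 7.48% of its counts were from mTEChi libraries. Pooled in the same way, Tas2r135 (7.11%), Tas2r108 (6.89%) and Tas2r126 (6.00%) came next among the members that passed the filter, and Tas2r143, which did not pass, had 15.8% of its 57 counts there. Among the members that passed, the genotypes did not give the same order. In KO, the mean mTEChi level was 8.39% of that in mTEClo for Tas2r126, 6.95% for Tas2r137 and 6.48% for Tas2r108, but only 2.67% for Tas2r135, which had 1 count in KO mTEChi and stood below Tas2r136 (5.39%), Tas2r145-ps3 (3.90%) and Tas2r123 (3.41%). In WT it was 14.6% for Tas2r135, 11.9% for Tas2r137 and 11.3% for Tas2r108, and 7.77% for Tas2r126, just below Tas2r145-ps3 (7.88%) and Tas2r129 (7.78%). Of the members that passed the filter, Tas2r137 and Tas2r108 were thus the ones among the first 3 in both genotypes. In the fit without the filter, Tas2r143 was less low in mTEChi than both, with log2 changes of -3.04 in KO and -1.66 in WT. The 4 named from the pooled counts lie in the 2 smaller clusters and hold the octamer in the windows printed above. The other octamer genes did not share this: Tas2r107 had 2.50% of its counts in mTEChi, Tas2r118 had 1.32%, and all 30 counts of Tas2r144 were from mTEClo. Conversely, Tas2r143, with its higher share, has no octamer in its window. Neither has Tas2r139 of the same cluster, whose few counts were mostly from mTEChi. By cluster, mTEChi libraries gave 5.89% of the counts of the 3-gene cluster, 7.62% of the 5-gene cluster and 1.37% of the 29-gene cluster. This grouping was noticed in the pooled counts, which are few in KO mTEChi, and is a description with no test.

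Tas2r108, a mouse receptor that responds to denatonium, had 2, 1, 11 and 4 counts in the KO mTEChi libraries, and between 3 and 12 in the WT mTEChi libraries. Its pooled level was 16.2-fold lower in mTEChi than in mTEClo in KO and 9.17-fold lower in WT. At the other end, Tas2r105, the mouse receptor for cycloheximide, had 2 counts in KO mTEChi and 7 in WT mTEChi. Its pooled level was 155-fold lower in KO mTEChi (exact 95% counting interval 42.5 to 1284) and 79.7-fold lower in WT mTEChi than in mTEClo. Tas2r120 and Tas2r125 had no count in any mTEChi library, and with 3 counts over a group as the floor they were at least 38.6-fold and 36.2-fold lower there in KO and at least 28.0-fold and 30.3-fold lower in WT. Intervals and floors cover counting error only.

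The members not called lower in mTEChi without a filter were Tas2r139, Tas2r114 and Tas2r111-ps2 in both genotypes and also Tas2r130 and Tas2r122 in KO. Tas2r139 had no count in KO mTEChi or KO mTEClo, 5 counts in WT mTEChi and 2 in WT mTEClo, too few to place it in either gate. Tas2r111-ps2 had 3 counts in all libraries, Tas2r114 had 10 and Tas2r122 had 16. Tas2r114 lies next to Tas2r105 in the genome, yet averaged 0.0801 CPM per kilobase in KO mTEClo and 0.352 in WT mTEClo, where Tas2r105 averaged 31.7 and 30.6. Neighbouring members could thus be among the lowest and the highest. Besides these, Tas2r130, Tas2r124, Tas2r134, Tas2r144, Tas2r146-ps1, Tas2r143 and Tas2r119 did not pass the filter, with 30 to 88 counts each.

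Within mTEClo the receptors spanned a wide range of levels. Per kilobase of transcript, 33 of the 40 averaged over 1 CPM in WT mTEClo and 13 averaged over 10. The order in WT mTEClo was led by Tas2r105 (30.6 CPM per kilobase), Tas2r108 (25.1), the pseudogene Tas2r142-ps5 (24.9), Tas2r113 (24.0) and Tas2r115 (21.0). In KO mTEClo it was led by Tas2r113 (39.5), Tas2r105 (31.7), Tas2r142-ps5 (29.2), Tas2r108 (25.6) and Tas2r109 (23.3). For every pair of neighbours in these orders the ranges of mean ± SD overlapped (n = 4 in KO and 8 in WT). The 8 members with the most counts, Tas2r105, Tas2r113, Tas2r108, Tas2r142-ps5, Tas2r115, Tas2r137, Tas2r109 and Tas2r118, held 51.3% of the family's counts in mTEClo. The 5 pseudogenes had a median level of 4.42 CPM per kilobase in KO mTEClo and 3.05 in WT mTEClo, against 6.07 and 5.28 for the 35 protein-coding members.

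In KO mTEClo 2 of the 29 tested members rose against WT, Tas2r113 and Tas2r123, and none fell (edgeR, adjusted p under 0.05 over all genes). The background was 12% of genes called higher and 9.69% called lower. The count of 2 is not above that background and is not read as a result about the family. The median log2 change of the 29 was 0.51, against 0.01 over all tested genes. At an unadjusted p under 0.05 there were 8 members, all with a positive change, and DESeq2 likewise called 2 higher and none lower. For none of the 40 did every KO library lie above or below every WT library, against 2.85% of genes above and 2.81% below. Neither call held without the 2 KO libraries of 6 weeks. The tuft cell marker sum overlapped, at 1741 to 2539 CPM in KO mTEClo and 1980 to 2586 CPM in WT mTEClo, while the 5 markers of cortical epithelium summed to 499.6 to 587 CPM in KO and 369 to 460 CPM in WT. The 4 fibroblast markers summed to 164 and 147 CPM in the 6-week KO libraries and to 59.5 and 63.9 CPM in the 5-week ones, against 52.5 to 84.2 CPM in WT. The part of these markers in the result was not tested. The labels do not say that the libraries of a group came from separate animals, so p-values measure the spread between libraries, which may be technical. KO libraries of the same age were the more alike. In KO mTEClo the mean chi-square per gene was 1.62 between replicates 1 and 2 and 3.99 between 3 and 4, against 6.28 to 12.2 across ages. In KO mTEChi it was 1.34 and 1.28, against 4.00 to 6.39. Close pairs occurred in WT too, at 1.42 for replicates 1 and 2 and 1.40 for 7 and 8 of mTEClo, and 1.23 for 1 and 2 of mTEChi. WT mTEClo replicates 1 and 3, both from males of 4 weeks, were at 3.31, so a shared age did not always go with likeness. The value was taken on raw counts and also depends on depth. The libraries of a group, KO or WT, may thus stand for fewer independent samples.

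Tas2r113 had 22.7, 23.2, 49.7 and 51.2 CPM in the KO mTEClo libraries, against a lowest, median and highest of 17.1, 20.5 and 34.6 CPM in WT mTEClo. The 6-week KO libraries, the last 2 given, were above every WT library, and the 5-week ones were inside the WT range. The log2 change was 0.84 ± 0.25 (SE, edgeR adjusted p = 0.0187). Without the 6-week libraries it was 0.10, with an adjusted p of 0.844 in edgeR.

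Tas2r123 had 10.8, 6.89, 22.3 and 26.5 CPM in KO mTEClo, against 3.82, 7.97 and 14.3 CPM as the lowest, median and highest in WT mTEClo. Again only the 6-week libraries were above all WT libraries. The log2 change was 1.18 ± 0.32 (SE, edgeR adjusted p = 0.00811), and 0.19 with an adjusted p of 0.773 in edgeR without the 6-week libraries. With age in weeks as a further term, edgeR gave log2 changes of 0.54 for Tas2r113 and 0.76 for Tas2r123, with adjusted p of 0.495 and 0.439. Without KO replicate 4 alone, neither gene passed, and without KO replicate 3 only Tas2r123 did.

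**Figure D3:**
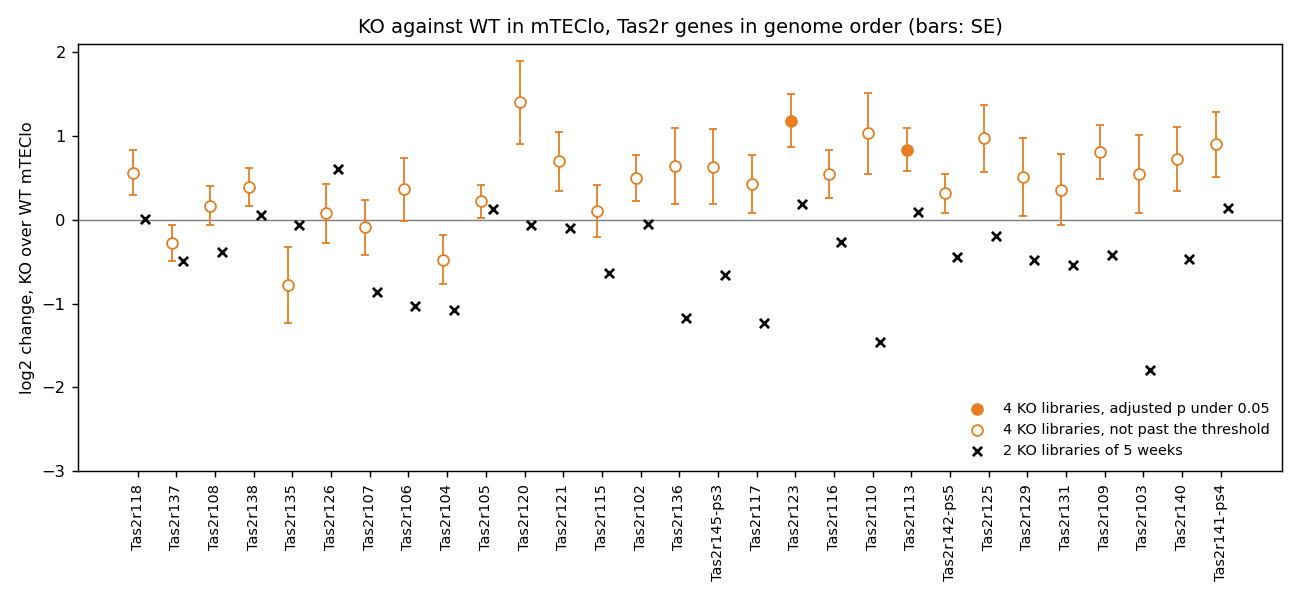
Log2 change of KO over WT in mTEClo for the 29 tested Tas2r genes in genome order, with SE bars, from all 4 KO libraries (circles; filled where adjusted p is under 0.05) and from the 2 KO libraries of 5 weeks alone (crosses). Circles are above 0 for 25 of 29 genes and crosses for 7 of 29; Tas2r113 and Tas2r123 are the filled ones.

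With the 6-week KO libraries left out, 25 positive changes of 29 became 7 of 29, and the median log2 change of the members became -0.42. In that fit no member was called higher (10.4% of 20013 genes) and 2 were called lower (10%), Tas2r104 at a log2 change of -1.08 and Tas2r117 at -1.23 (edgeR adjusted p = 0.0487 and 0.0269). The KO libraries of 5 weeks also held fewer than 2000000 counts each, and depth and age cannot be told apart within KO mTEClo. Without the 6 libraries under 2000000 counts, 9 of 30 tested members were called higher (11.1% of 20575 genes) and 1, Tas2r135, was called lower (10.6%). Both of these fits were chosen after the data were seen.

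Within KO mTEClo, both 6-week libraries lay above both 5-week libraries for 24 of the 29 tested members, against 29.5% of tested genes. They lay below them for 2, against 27.6% of tested genes. The summed level of the family was 517 and 546 CPM at 6 weeks and 267 and 249 CPM at 5 weeks. The 11 mTEC markers summed to 2474 and 2253 CPM at 6 weeks and 3670 and 3997 CPM at 5 weeks, and the fibroblast markers, given above, were higher at 6 weeks; their part was not tested. The 2 members with lower values at 6 weeks, Tas2r126 and Tas2r135, are neighbours in the 5-gene cluster. Of the family's counts, that cluster made up 2.25 and 1.74% in the 6-week libraries, 8.72 and 7.79% in the 5-week ones, and 2.95 to 7.84% in WT mTEClo. With 2 libraries at each age this is a description.

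**Figure D4:**
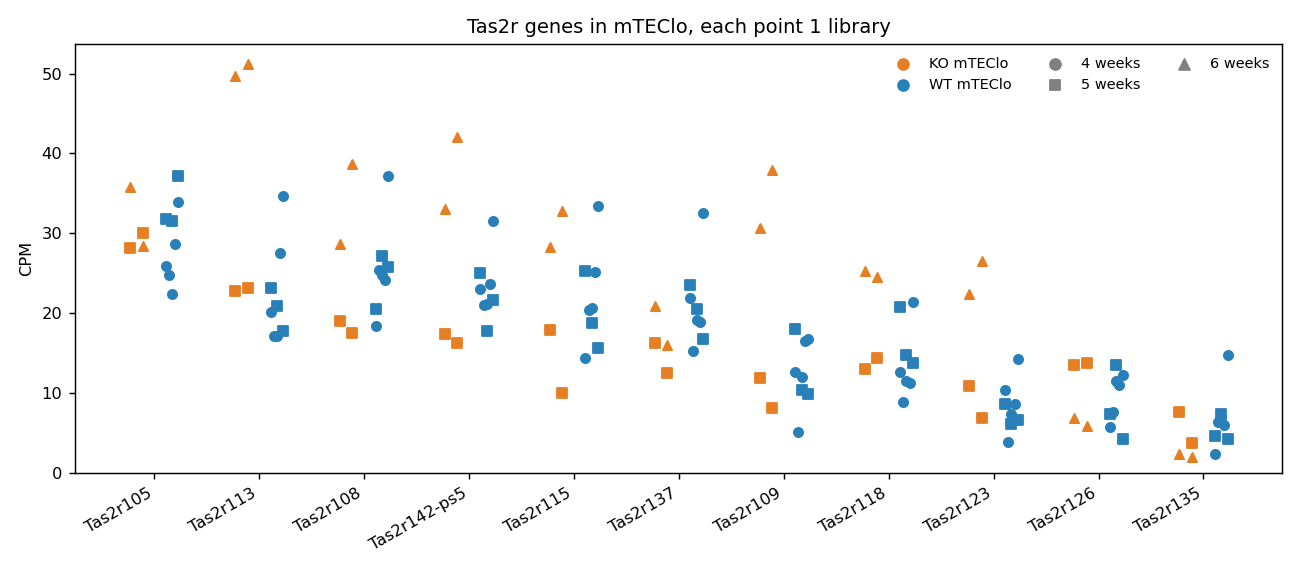
CPM of the 8 Tas2r genes with the most counts and of Tas2r123, Tas2r126 and Tas2r135 in the KO and WT mTEClo libraries, each point 1 library with its shape showing age. The 6-week KO libraries (triangles) reach 51.2 CPM for Tas2r113 and lie at the bottom of the KO points for Tas2r126 and Tas2r135.

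The remaining members are given by cluster, with KO mTEClo libraries in the order of their numbers (5, 5, 6 and 6 weeks) and the lowest, median and highest WT mTEClo library. In the 3-gene cluster, Tas2r137 had 16.2, 12.5, 20.8 and 16.0 CPM in KO, against 15.3, 19.8 and 32.6 CPM in WT. Tas2r108 had 18.9, 17.5, 28.6 and 38.6 CPM in KO, against 18.4, 25.1 and 37.2 CPM in WT. Tas2r138, the mouse counterpart of the human receptor for phenylthiocarbamide, had 12.4, 16.9, 21.4 and 21.1 CPM in KO, against 11.0, 14.1 and 18.6 CPM in WT. KO and WT overlapped for all of them, with log2 changes of -0.28, 0.17 and 0.40 and edgeR adjusted p of 0.367, 0.636 and 0.216. For Tas2r138 both 6-week libraries were above the WT range. In the 5-gene cluster, Tas2r135 had 7.58, 3.76, 2.38 and 1.94 CPM in KO, against 2.30, 6.20 and 14.8 CPM in WT. Tas2r126 had 13.5, 13.8, 6.85 and 5.83 CPM in KO, against 4.20, 9.32 and 13.4 CPM in WT. Its 5-week KO libraries lay just above the WT range and the 6-week ones inside it. Tas2r118, far from the clusters on chromosome 6, had 13.0, 14.4, 25.3 and 24.5 CPM in KO, against 8.90, 13.2 and 21.4 CPM in WT, with the 6-week libraries above the WT range. The log2 changes of Tas2r135, Tas2r126 and Tas2r118 were -0.78, 0.08 and 0.56 (edgeR adjusted p = 0.232, 0.907 and 0.129).

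In the 29-gene cluster 21 of the 23 tested members had a positive log2 change in KO mTEClo, with a median of 0.55. Tas2r120 had 5.41, 1.88, 14.6 and 15.5 CPM in KO, against 1.15, 3.95 and 7.08 CPM in WT. Tas2r109 had 11.9, 8.14, 30.7 and 37.9 CPM in KO, against 5.09, 12.3 and 18.0 CPM in WT. Tas2r125 had 4.33, 4.38, 11.9 and 15.3 CPM in KO, against 2.70, 4.36 and 7.60 CPM in WT. In each of these only the 6-week libraries were above the WT range, and the adjusted p in edgeR was 0.0546, 0.0703 and 0.0877. Tas2r110 had 1.08, 2.50, 14.0 and 17.7 CPM in KO, against 2.01, 5.60 and 7.50 CPM in WT. Tas2r141-ps4, a pseudogene, had 7.58, 1.25, 9.53 and 10.2 CPM in KO, against 2.01, 2.96 and 5.77 CPM in WT. Of its KO libraries replicate 2 was below the WT range and the other 3 were above it. Tas2r117 had 6.50, 5.01, 27.7 and 28.7 CPM in KO, against 8.73, 12.9 and 20.9 CPM in WT. Its 5-week KO libraries were below and its 6-week libraries above the whole WT range, and its log2 change over all was 0.43 (edgeR adjusted p = 0.400).

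Tas2r105, first in the WT order of levels, had 28.1, 30.1, 35.7 and 28.4 CPM in KO mTEClo, against 22.4, 30.1 and 37.2 CPM in WT. Its KO libraries all lay inside the WT range. Tas2r142-ps5 had 17.3, 16.3, 33.1 and 42.0 CPM in KO, against 17.8, 22.3 and 31.6 CPM in WT. Tas2r115 had 17.9, 10.0, 28.3 and 32.8 CPM in KO, against 14.4, 20.5 and 33.3 CPM in WT. Tas2r102 had 9.20, 15.7, 22.0 and 22.3 CPM in KO, against 8.27, 11.6 and 22.3 CPM in WT. For Tas2r142-ps5 the 5-week KO libraries were below and the 6-week ones above the whole WT range. Tas2r115 and Tas2r102 overlapped with WT. Tas2r104 had 7.04, 9.39, 16.4 and 14.6 CPM in KO, against 12.7, 17.2 and 26.5 CPM in WT. Tas2r107 had 2.71, 3.76, 7.74 and 6.07 CPM in KO, against 2.54, 6.67 and 10.7 CPM in WT. These are the 2 members of the cluster with a negative log2 change, -0.47 and -0.09 (edgeR adjusted p = 0.255 and 0.908), and the 5-week KO libraries of Tas2r104 were below the WT range. Tas2r116 had 9.74, 6.89, 18.8 and 19.9 CPM in KO, against 5.74, 9.17 and 13.5 CPM in WT, with both 6-week libraries above WT.

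The other 8 tested members of the cluster had WT medians between 2.62 and 5.51 CPM. Tas2r106 had 1.62, 3.13, 8.34 and 8.98 CPM in KO, against 3.18, 5.41 and 9.16 CPM in WT. Tas2r121 had 2.71, 3.76, 7.74 and 6.56 CPM in KO, against 1.91, 4.01 and 5.49 CPM in WT. Tas2r129 had 3.25, 3.13, 9.53 and 7.53 CPM in KO, against 0.636, 5.51 and 8.91 CPM in WT. The 6-week libraries were the higher KO ones in each. Tas2r103 had 1.08, 0.626, 8.64 and 5.34 CPM in KO, against 0.574, 2.62 and 5.19 CPM in WT. Tas2r140 had 2.71, 2.50, 10.7 and 6.07 CPM in KO, against 1.72, 4.32 and 6.10 CPM in WT. Tas2r136 had 0, 2.50, 4.47 and 7.53 CPM in KO, against 1.27, 3.11 and 4.20 CPM in WT. Of these 6 members, Tas2r121, Tas2r103 and Tas2r136 had both 6-week libraries above all WT libraries. Tas2r145-ps3 had 2.71, 1.25, 3.87 and 9.71 CPM in KO, against 1.68, 2.88 and 4.58 CPM in WT. Tas2r131 had 2.17, 1.25, 1.79 and 6.31 CPM in KO, against 1.53, 2.78 and 4.20 CPM in WT. In both, replicate 4 alone was above the WT range.

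In mTEChi no member passed the test of KO against WT in either direction (edgeR, 0 of 29), with a background of 25.7% of genes called higher and 28% called lower. The 29 had passed the filter through their mTEClo counts, and 16 of the 40 members had no count in KO mTEChi. So few counts limit what the test can show, and the absence of calls is not read as a result. The median log2 change of all 40 members without a filter was -0.62, against -0.01 over all tested genes. The summed family level averaged 8.26 ± 2.77 CPM in KO mTEChi and 14.0 ± 2.97 CPM in WT mTEChi (SD, n = 4 and 7), and the KO library of 12.3 CPM lay inside the WT range of 9.36 to 19.2 CPM. At an unadjusted p under 0.05 there was 1 member, Tas2r137, which had 1, 2, 6 and 3 counts in the KO libraries and 2 to 10 in the WT libraries (log2 change -0.97 ± 0.44, SE, edgeR adjusted p = 0.0638). DESeq2 called 1 member, Tas2r135, with 1 count in KO and 15 in WT, lower. The tuft cell marker sum lay at 158 to 248 CPM in KO mTEChi, against 261 to 405 CPM in WT mTEChi, without overlap, and its part in the family's level was not tested. The 6 dendritic cell and macrophage markers summed to 27.6 to 40.1 CPM in KO mTEChi, with Siglech at 0, and 91.2 to 125 CPM in WT mTEChi. KO and WT mTEChi were also without overlap in the marker sums of 4 other cell types. The sum was 39.7 to 51.1 CPM in KO and 66.8 to 84.2 CPM in WT for thymocytes, and 20.05 to 25.4 CPM in KO and 41.1 to 66.4 CPM in WT for endothelium. It was 43.1 to 50.9 CPM in KO and 27.9 to 35.8 CPM in WT for B cells, and 2936 to 3582 CPM in KO and 3664 to 4526 CPM in WT for mTECs. The mTEC markers include Aire, the deleted gene, which averaged 29.3 CPM in KO mTEChi and 818 CPM in WT mTEChi. The gap in the mTEC sum thus contains the knockout itself and is not read as a difference in cells. The part of the other cells was not tested either.

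The KO effect in mTEChi minus that in mTEClo passed for no member in edgeR, at the adjusted or the unadjusted threshold, and for none in DESeq2. The background was 10.8% of genes called for a higher effect in mTEChi and 14% for a lower one. The counts of 0 to 11 per library in KO mTEChi limit what this comparison can show.

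The receptors' signalling genes shared the mTEClo pattern in part. Of the 24 genes listed for taste transduction 19 were tested. In KO mice none was higher and 13 were lower in mTEChi, with a median log2 change of -1.36, and in WT mice 3 were higher and 13 lower, with a median of -1.23. Over all genes 29.2% were called higher and 28% lower in KO, and 36.7% and 33.4% in WT. Trpm5 averaged 62.0 ± 16.4 CPM in KO mTEChi and 620 ± 109 CPM in KO mTEClo, so its mTEChi level was 9.99% of that in mTEClo, and 13.2% in WT. The corresponding shares were 7.88% in KO and 12.5% in WT for Plcb2, and 3.89 and 6.57% for Gnat3. For the summed receptors they were 2.09 and 4.27%. Itpr3, which many cell types use, was at 99.4% in KO and 112% in WT. Differences between these shares were not tested.

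**Figure D5:**
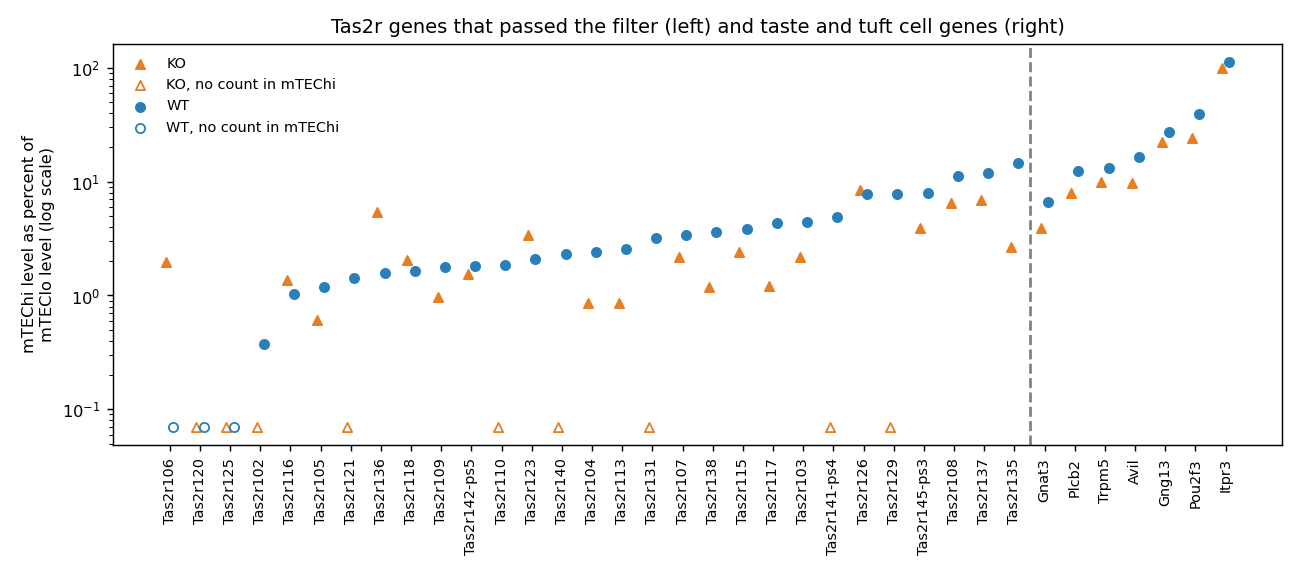
Mean level in mTEChi as a percent of that in mTEClo (log axis) in KO and WT for the 29 Tas2r genes that passed the filter, left of the dashed line, and for 7 taste and tuft cell genes, right of it; open symbols at the bottom mark genes with no count in mTEChi. Tas2r genes lie at or below 14.6% and the other genes between 3.89 and 112%.

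In the test of KO against WT in mTEClo, 3 genes of the transduction list rose and 2 fell, with a median log2 change of 0.23, against 0.01 over all tested genes. These counts out of 19 are near the background of 12% of genes called higher and 9.69% lower, and are not read as a result about the list. Without the 6-week KO libraries 5 of 21 were called higher and 3 lower, with a median of 0.34 (background 10.4% and 10%). Gng13, the gamma subunit of gustducin, had 11.4, 10.6, 14.0 and 18.9 CPM in KO mTEClo, against a WT mean of 6.35 ± 1.28 CPM (SD, n = 8), and rose by 1.25 ± 0.22 on the log2 scale (edgeR adjusted p = 0.000127). Calhm3, a subunit of the channel that releases ATP from taste cells, averaged 35.4 ± 9.78 CPM in KO and 18.1 ± 3.11 CPM in WT and rose by 1.12 ± 0.19 (edgeR adjusted p = 0.000111). Gnat1, the rod transducin alpha subunit, averaged 7.01 ± 1.17 CPM in KO and 1.50 ± 0.67 CPM in WT (log2 change 2.15, edgeR adjusted p = 8.34e-06). Gnat3 fell, at 93.1, 83.3, 108 and 104 CPM in KO, against a WT mean of 145 ± 14.4 CPM (log2 change -0.54, edgeR adjusted p = 0.00498). Every KO library was above every WT library for Gng13 and below every WT library for Gnat3. The calls of these 4 genes held without the 6-week KO libraries, at log2 changes of 0.88 for Gng13, 0.77 for Calhm3, 1.92 for Gnat1 and -0.69 for Gnat3 (edgeR adjusted p = 0.0324, 0.0222, 0.00179 and 0.00354). Plcb2, Trpm5 and Itpr3 did not pass, with log2 changes of 0.15, 0.07 and 0.28, though Itpr3 did without the 6-week libraries (0.42, edgeR adjusted p = 0.0149).

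In mTEChi 6 genes of the transduction list were called higher and 6 lower in KO, with a median log2 change of -0.30, against -0.01 over all tested genes. The background was 25.7% higher and 28% lower, so these counts out of 19 are close to it and are not read as a result about the list. Gnat3 averaged 3.77 ± 0.83 CPM in KO and 9.51 ± 3.59 CPM in WT (SD, n = 4 and 7) and fell by 1.27 on the log2 scale (edgeR adjusted p = 0.000245). Rtp4, a chaperone of G protein-coupled receptors, averaged 4.19 ± 1.61 CPM in KO and 18.7 ± 3.85 CPM in WT and fell by 2.14 (edgeR adjusted p = 2.98e-09). Plcb2 also fell, by 0.51 on the log2 scale (edgeR adjusted p = 0.00364). Tas1r3, the shared subunit of the sweet and umami receptors, rose by 0.80, Gng13 by 0.86, Gnai2 by 0.56 and Gnb1 by 0.31. Gnat1 averaged 2.73 ± 1.19 CPM in KO and 6.54 ± 1.64 CPM in WT and fell here, the opposite of its change in mTEClo.

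Of the 28 tuft cell genes 27 were tested. In KO mice none was higher and 24 were lower in mTEChi than in mTEClo, with a median log2 change of -2.88, and in WT mice none was higher and 20 lower, with a median of -1.37. The background of genes called lower was 28% in KO and 33.4% in WT. Against WT, 7 were called higher and 3 lower in KO mTEClo (median log2 change 0.33; background 12% and 9.69%), and 4 higher and 8 lower in KO mTEChi (median -0.33; background 25.7% and 28%). The counts of lower genes are near the background in both gates. Without the 6-week KO libraries 3 of 28 were called higher and 2 lower in mTEClo (background 10.4% and 10%), with a median log2 change of 0.06. Pou2f3 averaged 161 ± 22.7 CPM in KO mTEClo and 114 ± 12.4 CPM in WT mTEClo (SD, n = 4 and 8), with an edgeR adjusted p of 0.0720. Avil, a tuft cell actin regulator, averaged 412 ± 57.0 CPM in KO and 359 ± 52.0 CPM in WT mTEClo, and fell in KO mTEChi (log2 change -0.61, edgeR adjusted p = 0.00245). Dclk1, a widely used tuft cell marker, fell in both gates, by 1.74 in mTEChi and by 0.54 in mTEClo on the log2 scale, and Cd300lf fell in both gates too. In mTEClo both calls held without the 6-week KO libraries, at log2 changes of -0.82 and -0.89 (edgeR adjusted p = 2.92e-05 and 0.00879). Kctd12 was also called lower in both gates, but in mTEClo it had 388 and 366 CPM in the 5-week KO libraries and 108 and 161 CPM in the 6-week ones, against 376 to 519 CPM in WT. Without the 6-week libraries its log2 change in mTEClo was -0.28, against -0.86 with them, and it did not pass (edgeR adjusted p = 0.245). Inpp5d rose in mTEChi by 1.28, and Sox9 rose in both gates, by 1.02 in mTEChi and 0.49 in mTEClo. The call of Sox9 in mTEClo did not hold without the 6-week libraries (log2 change 0.22, edgeR adjusted p = 0.361). Both lists were chosen with earlier results of these data known.

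Set against tuft cell genes, the receptors gave 0.708 and 0.923 times the Trpm5 level in the KO mTEClo libraries of 6 weeks and 0.393 and 0.518 times at 5 weeks. WT mTEClo libraries lay between 0.401 and 0.756. Relative to Gnat3, the KO mTEClo libraries of 6 weeks were at 4.79 and 5.26, those of 5 weeks at 2.87 and 2.99, and WT mTEClo between 1.79 and 2.74. Relative to Pou2f3, the KO mTEClo libraries of 6 weeks were at 3.11 and 3.10, those of 5 weeks at 1.53 and 1.95, and WT mTEClo between 2.14 and 3.49. Relative to Gnat3, which itself fell in KO, all KO values lay above those of WT. Relative to Trpm5 they overlapped, and relative to Pou2f3 the 5-week KO libraries lay below WT and the 6-week ones inside its range. Against Plcb2, the 6-week KO libraries were at 1.14 and 1.37, above WT mTEClo (0.639 to 1.04), and the 5-week ones at 0.536 and 0.691. Against Avil, the 6-week KO libraries were at 1.15 and 1.33, the 5-week ones at 0.584 and 0.751, and WT mTEClo between 0.595 and 1.16.

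The Tas2r clusters hold 51 other genes between their members, of which 33 had a count and 17 were tested. In KO mice none of the 17 was higher and 15 were lower in mTEChi than in mTEClo, and in WT mice 4 were higher and 12 lower, with median log2 changes of -3.21 and -1.98. Over all genes 29.2% were called higher and 28% lower in KO, and 36.7% and 33.4% in WT. Gm8921, with no count in KO mTEChi and 1 in WT mTEChi, passed the filter through its mTEClo counts. For such genes the filter favours a lower call, which limits what these counts show. Olfr461, an olfactory receptor gene, averaged 5.56 ± 2.75 CPM in KO mTEChi and 52.1 ± 17.4 CPM in KO mTEClo, and 16.3 ± 4.73 CPM in WT mTEChi and 69.4 ± 15.0 CPM in WT mTEClo. Epha1, an ephrin receptor, averaged 9.76 ± 1.37 and 91.8 ± 14.9 CPM in the same gates of KO and 20.5 ± 4.46 and 81.9 ± 8.07 CPM in WT. In KO against WT mTEChi 9 of the 17 neighbours were called lower and 1 higher (background 28% and 25.7%), with a median log2 change of -1.14. Olfr461 fell by 1.51 and Epha1 by 1.09 on the log2 scale. Clec5a, a myeloid receptor, had no count in KO mTEChi and 109 in WT mTEChi, at least 19.6-fold lower in KO (edgeR adjusted p = 9.13e-06). In KO mTEClo 2 of the 17 neighbours rose and none fell, with a median of 0.20, which is near the background of 12% called higher. They were Gstk1 at a log2 change of 1.39 and Gm8921 at 1.54, Gm8921 with 2.71, 3.76, 5.36 and 4.37 CPM in KO, against a WT mean of 1.83 ± 0.89 CPM. Without the 6-week KO libraries no neighbour of 16 tested was called higher and 1 was called lower, Olfr461 at -0.95 (edgeR adjusted p = 0.0102). In that fit Gstk1 had a log2 change of 0.87 (edgeR adjusted p = 0.125), and Gm8921 was not tested.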

How the data were processed

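The values used are read counts per gene, deposited by the authors as 1 table of 23 libraries; the submitters' processing notes name, without roles, HTSeq 0.11.2, STAR 2.7.3a, fastp 0.20.0, Picard 2.21.1, SAMtools 1.9 and edgeR, and the builds mm10 and GRCm38. The counting is not stated to use strand. Library totals were 1602125 to 3938588 counts, which limits genes of a few counts.

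The members and lists were chosen with earlier results of these data known. All genes were fitted with edgeR 4.0.16 (R 4.3.3, TMM factors, robust quasi-likelihood test) on group and sex over all 23 libraries with 18 residual degrees of freedom. filterByExpr with a minimum count of 10 kept 19310 genes, and p-values were adjusted over all of them by the Benjamini-Hochberg method, with calls at 0.05. The 4 group comparisons and the difference of the KO effect between gates share libraries. CPM uses TMM-scaled library sizes, and counts of detected genes were taken after thinning to 1602125 counts. Folds on 1 to 3 counts have an exact 95% counting interval, and groups without counts use a floor of 3 counts over the group. Promoter windows and motifs are from RefSeq, matched by symbol. The fitting procedure was tested on simulated data. Alternatives were 14 settings, DESeq2 1.42.0 among them, and leaving out each library. Of these, the fits without the 6-week KO libraries, with 5-week libraries only and without the libraries under 2000000 counts were chosen after seeing the data.

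Values per library are given for the 29 members that passed the filter, others by counts; 7 taste and tuft genes were always named, with up to 6 more of each list and 5 cluster neighbours by the smallest p in a KO comparison; 1 gene that this rule names is not reported here. Replicate numbers in the labels were checked for pairing. In KO mTEChi against KO mTEClo the same-numbered libraries deviated together, with correlations of 0.164, 0.197, 0.139 and 0.222 across genes, and the fit with the replicate block changed no member's call there. In both KO gates replicates 1 and 2 were of 5 weeks and replicates 3 and 4 of 6 weeks. A shared number and a shared age thus cannot be told apart in these correlations.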

Additional observations from a re-analysis of the deposited data

Results flagged for a closer look

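In 160 groups of 4 to 8 libraries checked for a library far from the others, 6 were found, and chance alone gives about 1 in 20. The 6 are thus no more than chance gives and are listed as a description. WT mTEClo replicate 5 was the high library for Tas2r108 (37.2 CPM), Tas2r135 (14.8 CPM), Gng13 (9.42 CPM) and Cd300lf (42.0 CPM). WT mTEChi replicate 4 stood apart for Gm8921 (0.302 CPM, its 1 count in mTEChi). KO mTEClo replicate 4 was the low library for Epha1 (69.7 CPM). Single receptors in mTEChi, with few counts, were not checked.

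No receptor passed edgeR's test of the difference between the KO effect in mTEChi and that in mTEClo, but 15 of the other named genes did. Those genes were named for their small p in a KO comparison, so their number is not set against the receptors. Over the whole lists it was 8 of 19 transduction genes, 13 of 27 tuft cell genes and 7 of 17 cluster neighbours, against 10.8% of all genes with a higher and 14% with a lower effect in mTEChi. The effect in mTEChi minus that in mTEClo, on the log2 scale, was -3.48 for Gnat1, -1.89 for Rtp4, -1.05 for Calhm3, -0.67 for Plcb2 and 0.65 for Tas1r3 among taste transduction genes. Among tuft cell genes it was -2.81 for Cd300lf, -2.07 for Kctd12, -1.20 for Dclk1, -0.76 for Avil, 0.53 for Sox9 and 1.16 for Inpp5d. Among cluster neighbours it was -7.11 for Clec5a, a fitted value that depends on the prior count, -2.90 for Gstk1, -1.22 for Epha1 and -1.06 for Olfr461.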

How the results depend on the processing

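The calls of KO against WT depended on the libraries used, and the cause was not tested. In mTEChi the main count of lower receptors was 0; it was 1 with upper quartile factors and with DESeq2, 2 with males only, without the 6-week KO libraries and with 5-week libraries only, 3 with males of 5 weeks only, and 0 to 2 when 1 library was left out. In mTEClo the main count of higher receptors was 2; it was 1 at an adjusted p under 0.01, 0 with age added, with males of 5 weeks, without the 6-week KO libraries and with 5-week libraries only, 4 with a term for libraries under 2000000 counts, and 9 without those libraries. Leaving out 1 library gave 0 to 7, with 0 without KO mTEClo replicate 4, 1 without KO replicate 3 or WT replicate 3, 4 without WT replicate 6, and 6 and 7 without KO replicates 1 and 2. The count of lower receptors in mTEClo, 0, became 2 without the 6-week KO libraries, and 1 both with 5-week libraries only and without the libraries under 2000000 counts.

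With only the libraries compared in the fit, 18 of 18 tested receptors in WT and 16 of 16 in KO were lower in mTEChi, against 29 of 29 in each, since fewer genes passed the filter; that fit tested no receptor for KO against WT in mTEChi. The difference between gates had 0 lower receptors and 0 to 1 when a library was left out (1 without KO mTEChi replicate 3). In KO mTEClo against WT mTEClo the log2 change took the other sign for 18 of 29 receptors without the 6-week KO libraries, for 17 of 25 with 5-week libraries only, for 20 of 27 with males of 5 weeks only and for 15 of 29 with age added. Among these were, with a call in 1 of the fits compared, Tas2r113 with males of 5 weeks only (-0.022, with 1 WT library) and Tas2r117 without the 6-week KO libraries (-1.23).

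With the replicate block 6 receptors were called higher in KO mTEClo, and no other count of calls moved. Outside KO mTEChi against KO mTEClo, same-numbered libraries correlated between -0.179 and 0.098. Differently numbered libraries were not compared, so these values do not settle whether a number pairs samples. Depth limits the mTEChi values most, where no receptor had more than 12 counts in a library.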
